A study of Mus musculus with 22 samples.

Results

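Gene expression was compared between B cells that carried a Myc transgene before any tumour had formed and lymphomas that arose from mice of the same transgenic line. The transgene was active on both sides, so the comparison describes what differed at transformation once Myc was already high. It used 18 of the 22 arrays of the series: all 5 arrays labelled premalignant and all 13 labelled malignant. The other 4, from wild type B cells, are given only as a reference level. Every gene that could be measured entered the comparison, which left 6437 tested genes of the 12393 that the array names through a probe set with a single gene symbol.

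All mice were C57Bl/6. Premalignant cells were B220+ lymphocytes from Eμ-Myc transgenic mice aged 4-6 weeks, littermates of the wild type mice. The lymphomas came from 13 independent Eμ-Myc mice, and the sample labels give them the same age of 4-6 weeks. The series design states that age for the wild type and premalignant littermates only, so the age of the lymphoma mice is uncertain. B cells were isolated by MACS, with antibodies to either B220 or IgM on the beads, and the tissue was either spleen or bone marrow. Which tissue and which antibody was used for a given array is not said, so stage, age, tissue and antibody cannot be told apart. The labels do not say whether the 5 premalignant samples came from separate mice or from pools, so p-values measure the spread between these samples, which may be partly technical. RNA was hybridised to Affymetrix MOE430A arrays.

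In the Eμ-Myc mouse, the immunoglobulin heavy chain enhancer drives Myc in the B lineage. Young animals have an excess of dividing but polyclonal B cell precursors, and clonal pre-B or B cell lymphomas appear later, in each mouse at its own time. Myc is a transcription factor that binds E-box sequences with its partner Max and drives cell growth and division. It also drives cell death, and second lesions that block this death, among them loss of Cdkn2a or gain of BCL2 family survival factors, are known to speed lymphoma in this model.

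Values are log2 of the deposited intensities throughout. Myc itself stood at 10.01, 9.53, 10.21, 10.05 and 10.04 on the 5 premalignant arrays. In the lymphomas it ranged from 8.67 to 10.76 with a median of 9.62. The wild type mean was 7.04 ± 0.27 (SD, n = 4). The lymphomas surrounded the premalignant values on both sides, and the difference, -0.38 with a 95% confidence interval from -0.93 to 0.17, did not pass (exact two-sided permutation p = 0.193 over 8568 regroupings). The probe set does not separate the transgene from the mouse's own Myc gene.

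The RNA of the 2 groups differed. The 3′ beta-actin control probe set exceeded the 5′ one by 0.70 ± 0.085 (SD, n = 5) in premalignant cells, with a range of 0.58 to 0.81. In the lymphomas the excess was 1.93 ± 0.37 (SD, n = 13), with a range of 1.29 to 2.49 and no overlap (exact two-sided permutation p = 0.000233, the smallest this design allows). The same held for Gapdh, at 0.25 and 0.94 (exact two-sided permutation p = 0.000233). A large 3′ excess is a usual sign of shorter RNA or less complete labelling, so this measure of RNA quality and the disease stage cannot be told apart. Premalignant replicate 1 also stood apart, with a mean correlation to the other premalignant arrays of 0.940 against 0.956 to 0.973 for those.

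At an adjusted p under 0.05 (limma with Benjamini-Hochberg adjustment over all tested genes), 2711 of the 6437 genes differed, 42.1% of those tested. In the lymphomas 1597 genes were higher (24.8%) and 1114 were lower (17.3%). The larger changes were mostly falls: of 844 genes (13.1%) that changed at least 2-fold, 369 rose (5.73%) and 475 fell (7.38%). For 786 genes (12.2%) no array of either group lay within the range of the other group, 404 of them higher (6.28%) and 382 lower (5.93%). With the beta-actin difference of each array as a covariate, 321 genes passed, 123 higher (1.91%) and 198 lower (3.08%). The median standard error was larger in that fit and went from 0.18 to 0.36 on the log2 scale. Because the beta-actin difference did not overlap between the groups, the covariate fit extrapolates. It cannot separate stage from RNA quality, so a gene that passes or fails it, here and below, is a description. Among the 13 lymphomas alone, limma called 0 of the 6437 genes as following the beta-actin difference, and 437 had an unadjusted p under 0.05. With 13 arrays that fit could miss such genes, so no conclusion is drawn from it. Scaling the arrays on the spiked hybridisation controls left 1737 calls, 1226 higher (19% of tested genes) and 511 lower (7.94%). Of these calls 70.6% were higher, against 58.9% as designed, and the median change over all genes moved from 0.09 to 0.26. Without premalignant replicate 1 there were 2678 calls, and without premalignant replicate 5 there were 2236. The gene counts below are set against the shares of all genes given here. The filter on low values also touches them. A gene above 4 on no lymphoma array could pass only through the other groups, so a fall in it was favoured by the filter and is a description. Of such genes 4 immediate early, 5 mature B cell surface and 6 interferon genes passed, against at most 2 in any other pathway list. Of the pro-B and pre-B genes 4 passed through lymphomas alone. The filter left 24 of 32 immediate early, 23 of 25 mature B cell surface and 36 of 43 interferon genes on the array to be tested.

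Markers of cells other than B cells differed between the groups. Of 25 stromal and endothelial markers on the array, 17 passed the filter and 6 were never above 4. Of the 17, 10 passed through lymphoma arrays alone, so their direction was set by the filter and their number is a description. Sparc, which encodes a matrix protein of fibroblasts and vessels, gave 3.20, 2.81, 2.85, 2.86 and 2.87 on the premalignant arrays, below the level of 4 that the filter treats as expressed. The lymphomas lay between 5.83 and 9.36 with a median of 7.89. Sparc was thus above every premalignant value in 13 of 13 lymphomas, at least 14.6-fold higher. The collagens Col3a1, Col1a2 and Col4a1 were at least 17.0-fold, 13.3-fold and 18.2-fold higher, and Cxcl12, the chemokine by which stroma retains B cell precursors, was at least 7.33-fold higher. Pecam1 and Vim, which B cells also express, were lower. The mean level of the 17 genes, which rests on that selection, was 4.09 to 4.32 on premalignant arrays, 5.90 to 7.72 on lymphoma arrays and 4.29 in wild type cells. By their group mean, 16 of the 25 markers on the array were above 4 in lymphomas and 5 in premalignant cells, while their summed linear intensity ran from 2179 to 6849 against 2330 to 3101. In premalignant cells that sum was mostly Vim, whose mean was 11.00 there and 10.34 in lymphomas. Cdh5, Tek and Pdgfra, markers of endothelium and fibroblasts, were never above 4 on any of the 22 arrays. Other such markers went the other way. Kdr and Pdgfrb, neither tested, reached 4.56 and 5.28 in lymphomas, against at most 2.46 and 3.36 in premalignant cells. Dcn lay at 5.72 to 7.56 in lymphomas and at 2.48 to 3.00 in premalignant cells.

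The pan-B markers moved the other way, with 0 higher and 11 lower of 14 tested, 3 of them with the beta-actin covariate. Their mean level was 10.18 to 10.35 on premalignant arrays and 7.82 to 9.55 in lymphomas, with no overlap. Cd79a and Cd79b, the signalling chains of the B cell receptor, remained among the brightest genes in every lymphoma, at 10.75 to 12.08 and 10.04 to 11.33. Ptprc, whose product in its B cell form is the B220 antigen, gave 10.45, 11.21, 10.85, 11.02 and 11.28 in premalignant cells and 8.07 to 9.61 with a median of 9.27 in lymphomas, 3.61-fold lower (limma adjusted p = 1.1e-06). Ms4a1, encoding CD20, lay at 11.55 to 12.00 in premalignant cells and at 4.64 to 10.68 in lymphomas. Pax5 was never above 4 on any array, so its level was not measured here. In bulk RNA such as this, fewer cells of a type and less RNA per cell cannot be told apart, here and in each result that follows. The part that the stromal RNA plays in those results was not tested.

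Of 13 tested monocyte and macrophage markers, 5 were higher and 2 lower (2 and 1 with the beta-actin covariate). The macrophage lysozyme Lyz2 stood at 6.02 to 7.77 in premalignant cells and at 8.68 to 11.52 in lymphomas, 6.87-fold higher (limma adjusted p = 1.6e-04). Csf1r and Adgre1, the receptors that define monocytes and macrophages, were 2.89-fold and 2.18-fold lower. The natural killer cell genes Gzma and Nkg7 were the only 2 of 11 to pass the filter, and they did so through wild type and premalignant arrays alone, at no more than 3.21 and 2.32 in any lymphoma. Among genes listed as T cell markers, Cd2 was lower in lymphomas, whereas Cd4 averaged 2.13 in premalignant cells and 3.64 in lymphomas without passing. Cd2 was also bright in wild type B cells, at 8.48 to 9.35, so its fall does not measure T cells. Zap70 and Thy1, not tested, reached 6.89 and 5.09 in lymphomas. Dendritic cell markers gave 2 lower of 4 tested, and Tcf4 averaged 7.43 and 7.61. Cd3e, Cd3g, Cd8a, Ncr1, Prf1 and Cd14 were never above 4 on any array.

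Premalignant replicate 2 carried more erythroid RNA than the others. On it 12 of 13 erythroid markers were above 4, against 4 on replicate 1 and 1 on each of the remaining 3. Slc4a1, the red cell anion exchanger, gave 4.44, 10.41, 3.53, 3.94 and 3.64 on the 5 arrays and at most 3.61 in lymphomas. Alas2, the heme synthesis enzyme of red cells, gave 2.15, 9.20, 2.09, 2.09 and 2.10. Of 3 tested erythroid genes, Slc4a1 and Car2 did not pass, and Tfrc, which dividing cells also express, was higher in lymphomas. Without premalignant replicate 2 there were 2382 calls.

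Plasma cell markers fell with the B cell markers, 8 of 11 tested and 0 higher (4 with the beta-actin covariate). Jchain, which joins secreted IgM and IgA, was 8.53, 11.06, 10.28, 9.95 and 10.50 in premalignant cells, and 1.66 to 7.76 with a median of 2.77 in lymphomas. All 13 lymphomas lay below all premalignant arrays, at least 67.0-fold lower on average.

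Genes known as partners of Myc in lymphoma were examined in full. Of 19 tested, 3 were higher, 8 were lower and 8 did not pass, and 1 of the 3 and 2 of the 8 passed with the beta-actin covariate. Cdkn2a, Cdkn2b and Cdkn1a did not pass the filter on low values and were not tested. Pim1, the serine/threonine kinase that cooperates with Myc when overexpressed, gave 7.81, 7.37, 7.12, 7.31 and 7.36 in premalignant cells. In the lymphomas Pim1 lay between 4.02 and 6.29 with a median of 5.37, so the groups did not overlap (4.47-fold lower, -2.16 ± 0.29 SE, limma adjusted p = 1.2e-05). Mcl1, a BCL2 family member that blocks cell death, gave 10.35, 10.59, 10.09, 10.28 and 10.13 against 8.44 to 9.76 with a median of 8.80. Mcl1 again separated all 18 arrays by group, 2.52-fold lower, and Pim1 and Mcl1 both passed with the beta-actin covariate (limma adjusted p = 0.0031 and 0.019).

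Pim2 was 2.56-fold lower, and Mdm2, which marks p53 for destruction, was 2.26-fold lower at a lymphoma median of 5.72 against premalignant values of 6.79 to 7.49. Cdkn1b, encoding the cell cycle inhibitor p27, fell 2.21-fold from 4.95, 6.00, 5.85, 5.83 and 6.60 to a median of 4.78, and its groups overlapped. Rb1, encoding the retinoblastoma protein, fell 1.98-fold. Xiap (1.54-fold) and the Polycomb gene Bmi1 (1.51-fold) were also called lower, but both calls were lost with spike scaling. Bmi1, long known as a Myc collaborator, was also lost without premalignant replicate 2.

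The 3 genes that rose were Gfi1, Usp7 and E2f1. Gfi1, a transcriptional repressor found at retroviral insertion sites in Myc lymphomas, was near the expression threshold in premalignant cells at 4.57, 4.25, 4.24, 4.25 and 4.14. In the lymphomas it ranged from 4.25 to 6.61 with a median of 5.74, and 12 of 13 lymphomas exceeded every premalignant value (2.43-fold, limma adjusted p = 0.0043). Usp7, a deubiquitinase that acts on Mdm2 and p53, stood at 8.91, 8.67, 8.63, 8.44 and 8.60 against 9.14 to 9.75, without overlap (1.74-fold higher, limma adjusted p = 3.0e-05). E2f1, an activator of S phase genes, was 1.49-fold higher. Bcl2 was below 4 on all premalignant and lymphoma arrays, and its difference of -0.18 (95% confidence interval -0.45 to 0.10) did not pass. Bcl2l1, which encodes BCL-XL, differed by 0.26 (-0.05 to 0.57) and Bcl2l11, which encodes the death factor BIM, by 0.51 (-0.08 to 1.10), and neither passed.

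**Figure D1:**
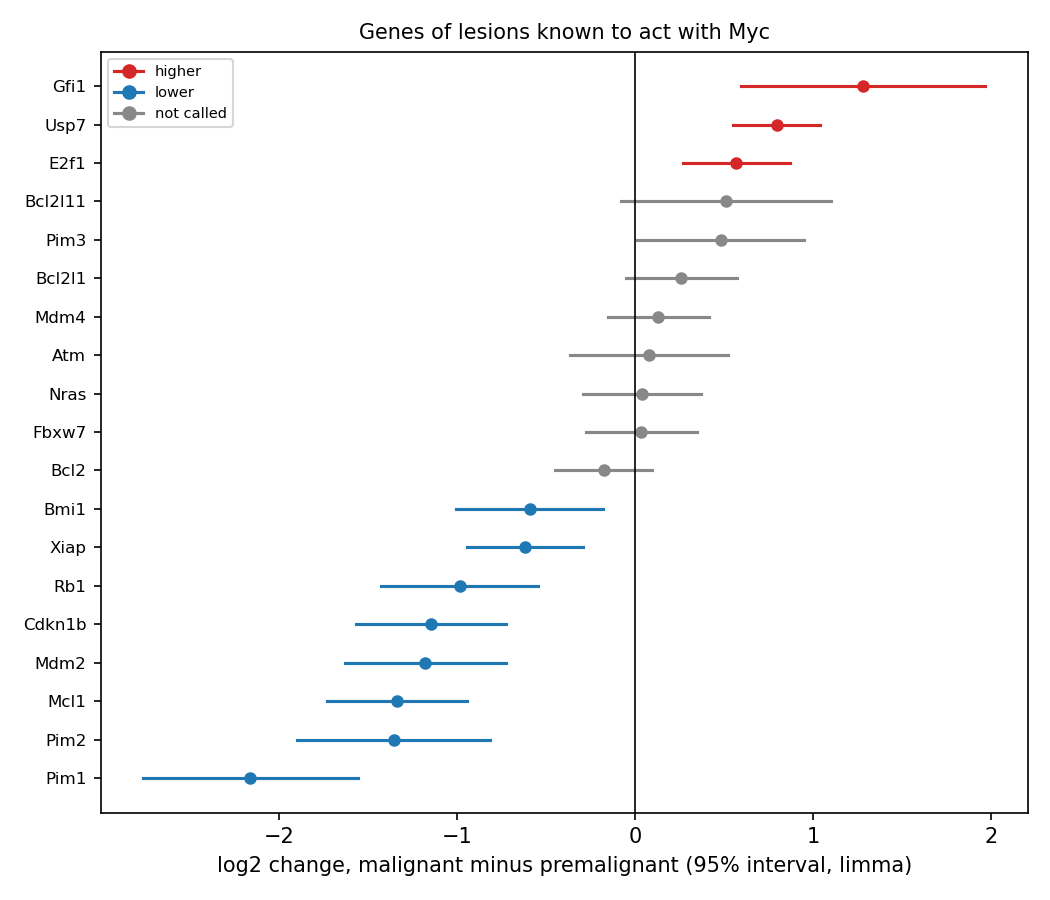
Log2 change (x axis, malignant minus premalignant) of each of the 19 tested genes known to cooperate with Myc in lymphoma, with 95% confidence intervals from limma and colours for the call. Pim1, at -2.16, lies farthest to the left and Gfi1, at 1.28, farthest to the right, and the intervals of 8 genes belong to no call.

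In the Max network, which sets the partners of Myc, 1 of 9 tested genes was higher and 4 were lower (0 and 1 with the beta-actin covariate). Mxd4, a Max partner that represses the E-box genes Myc activates, gave 7.83, 8.06, 8.07, 8.33 and 8.17 in premalignant cells and 4.79 to 7.66 with a median of 6.35 in lymphomas, with no overlap (3.87-fold lower, limma adjusted p = 8.2e-05). Mlxip, which encodes a glucose-responsive relative of Myc, was 1.51-fold higher (limma adjusted p = 0.011).

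Immediate early genes, which encode AP-1 factors and feedback regulators and are switched on within minutes of a stimulus or of tissue handling, fell widely. Of 24 tested, 17 were lower and 0 higher, with 8 of the 17 left under the beta-actin covariate, and 9 of them separated the groups without overlap. Their mean level was 7.04 to 8.21 in premalignant cells and 5.02 to 5.92 in lymphomas. Jun stood at 8.45, 7.50, 7.20, 7.51 and 8.21, and all lymphomas were below 4, at 2.57 to 3.44 with a median of 2.91. That placed Jun at least 13.7-fold lower (-4.86 ± 0.18 SE). Jun passed the filter through the other groups alone, so its direction was set by the filter. Dusp1, a phosphatase that switches off MAP kinases, gave 8.06, 6.27, 7.32, 7.38 and 8.97 against 3.11 to 5.05. Rgs2 (15.4-fold), Zfp36 (13.1-fold), Junb (6.50-fold) and Jund (2.14-fold) also fell. Egr1 did not pass, at 8.42, 5.21, 5.77, 5.56 and 6.99 against 2.99 to 8.57, with complete overlap of the groups.

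The bases upstream of these genes were searched on both strands, from 250 bases before each RefSeq start (GRCm38.p6) up to it, for the cyclic AMP response element TGACGTCA. It occurred in 3 of the 20 immediate early genes with a promoter entry (15%), all 3 lower, and in 2.96% of the 5332 tested genes with an entry. The CArG box, the site of serum response factor, occurred in 3 of the 20 as well (15%, against 1.39%), but in 1 of the 15 lower genes and in 2 of the 5 that did not pass. The response elements of Dusp1 (chr17:26508548-26508675, minus strand) and Btg2 (chr1:134079254-134079381, minus strand) are shown with the element in capitals, because both genes fell and stayed below their premalignant range in every lymphoma.
Dusp1: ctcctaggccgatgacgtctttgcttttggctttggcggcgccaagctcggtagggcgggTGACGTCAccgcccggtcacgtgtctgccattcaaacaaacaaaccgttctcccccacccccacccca
Btg2: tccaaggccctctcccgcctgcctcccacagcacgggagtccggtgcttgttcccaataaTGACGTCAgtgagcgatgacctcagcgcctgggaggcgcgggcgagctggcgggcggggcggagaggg

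Btg2, an antiproliferative gene, belongs also to the genes associated with quiescence. Its premalignant values were 9.66, 9.12, 9.52, 9.56 and 9.50, and the lymphomas ranged from 5.63 to 8.23 with a median of 6.51 (7.56-fold lower, -2.92 ± 0.32 SE, limma adjusted p = 1.3e-06). Of 21 tested quiescence genes, 15 were lower and 1 was higher, 4 of the 15 with the beta-actin covariate. Klf4, a growth-restraining zinc finger factor, gave 6.46, 4.84, 5.77, 4.89 and 7.22 and was below 4 in every lymphoma, at 2.80 to 3.03 (at least 3.57-fold lower). Slfn2, needed to keep lymphocytes at rest, gave 7.38, 6.34, 6.90, 7.20 and 6.56 against 2.67 to 5.75 (5.99-fold lower). Klf2, Tob1 and Tsc22d3 fell 5.18-fold, 4.98-fold and 4.58-fold. Klf9 was the exception, 2.75-fold higher with a lymphoma median of 7.17 against premalignant values of 5.15 to 6.17.

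**Figure D2:**
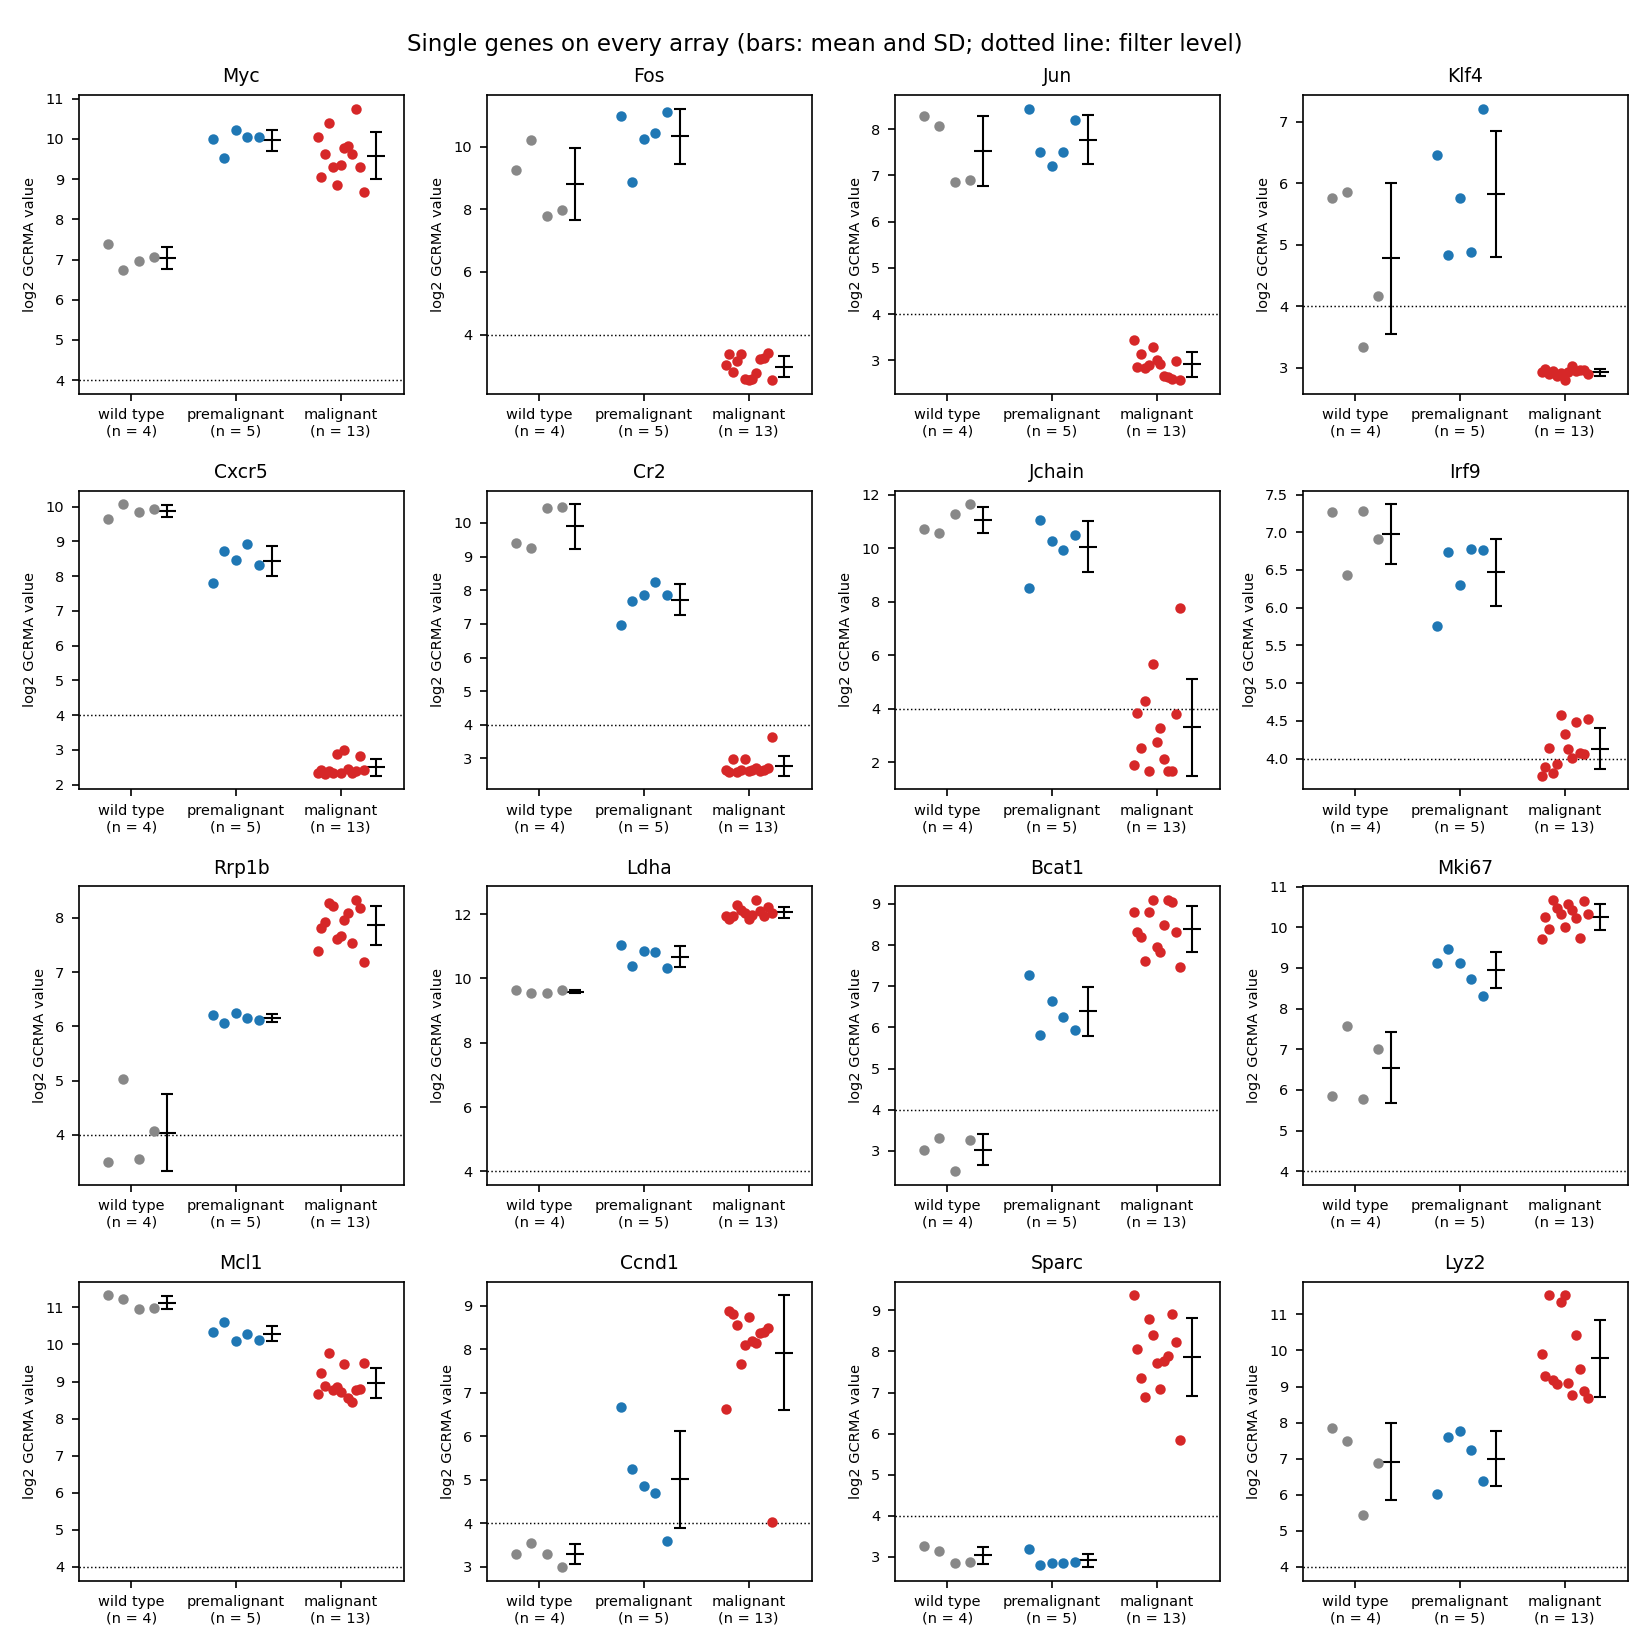
Log2 intensity (y axis) of single genes on every premalignant and malignant array, with wild type arrays beside them for reference. Each point is 1 array, bars show the group mean and SD, and the dotted line marks the filter level of 4: Jun lies at 7.20 to 8.45 in premalignant cells and at 2.57 to 3.44 in lymphomas, while Myc overlaps between those groups.

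The loss extended over the molecules by which a mature B cell finds follicles, leaves tissues and signals. Of 23 mature B cell surface genes, 20 were lower and 1 was higher (7 of the 20 with the beta-actin covariate), and 15 separated the groups. Cd40, the receptor for T cell help, gave 4.52, 5.90, 5.35, 5.56 and 5.69 and lay at 3.34 to 3.81 in the lymphomas. It was below the expression threshold in all of them (at least 2.65-fold lower), so the filter set its direction too. Ltb, which encodes lymphotoxin beta and organises lymphoid tissue, was 36.4-fold lower. Among 17 homing and egress genes 9 were lower and 0 higher (4 with the covariate). S1pr1, the receptor that guides exit into blood and lymph, stood at 6.46, 7.09, 7.27, 7.75 and 8.22. In the lymphomas S1pr1 had a median of 3.95 and a range of 3.62 to 6.41, just short of the lowest premalignant value (7.33-fold lower, limma adjusted p = 1.5e-05). The lymph node homing receptor Ccr7 fell 6.91-fold, and Cxcr4, the receptor for Cxcl12, did not pass (-0.23, limma adjusted p = 0.396).

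Of 23 genes of the B cell receptor and its signalling, 14 were lower and 0 higher (5 with the covariate). The adaptor genes Lat2 and Dapp1 fell at least 5.83-fold and 3.23-fold, and the kinase gene Syk fell 2.82-fold. Among 22 B lineage transcription factors 14 were lower and 0 higher (3 with the covariate), led by Spib (4.17-fold), Ets1 (3.75-fold) and Ikzf1 (3.59-fold). Ebf1 and Pou2af1, which also specify B cells, did not pass, with changes of 0.32 and -0.02. Of 13 genes of pro-B and pre-B cells, 2 were higher and 1 lower (1 and 0 with the covariate). Cd93, a surface marker of immature B cells, gave 6.22, 6.09, 6.97, 6.45 and 6.25 against a lymphoma median of 9.25, 5.66-fold higher, and 12 of 13 lymphomas exceeded every premalignant value. Myb, needed for dividing precursors, was 2.51-fold higher (9.15, 7.80, 8.11, 7.76 and 7.80 against 8.77 to 10.29). Premalignant replicate 1, the highest of its group, overlapped the lymphomas.

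Antigen presentation followed the same direction. Of 13 MHC class II genes 10 were lower and of 15 class I genes 10 were lower, with 0 higher in either list and 0 left in either with the beta-actin covariate. The class II chaperones H2-DMb2 and H2-Oa fell 24.4-fold and 18.5-fold. Cd74, the invariant chain, stood at 13.59, 12.99, 12.92, 13.18 and 13.20, whereas the lymphomas spread from 4.84 to 12.67 with a median of 11.14. Every lymphoma was below every premalignant array, but with that spread the call (limma adjusted p = 0.027) was lost without premalignant replicate 1, 4 or 5. Ciita, the master activator of class II genes, did not pass (-0.67, limma adjusted p = 0.277). In the class I list Pdia3 fell 3.96-fold and H2-M3 fell 3.90-fold. Probe sets of MHC genes can bind RNA of close relatives, so single family members are uncertain.

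**Figure D3:**
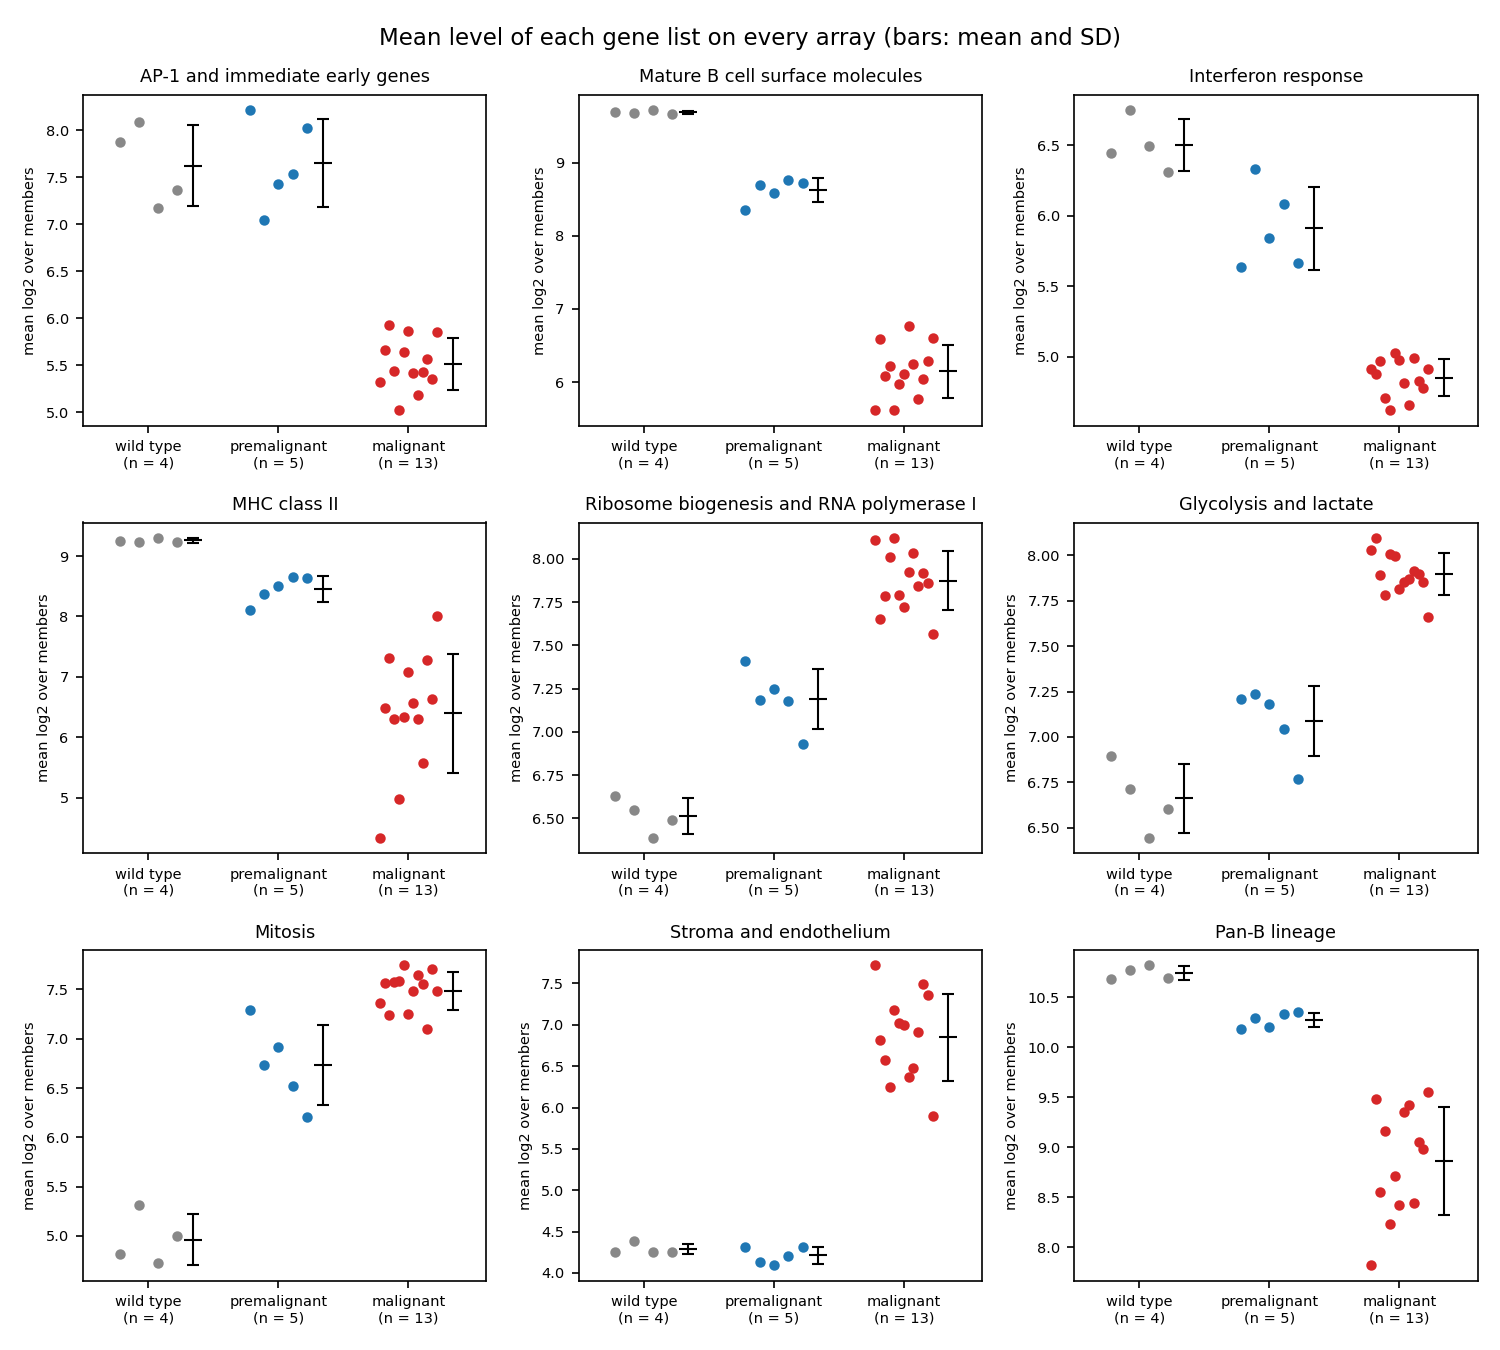
Mean log2 intensity of the tested members of gene lists (y axis) on each array of the 3 groups. Each point is 1 array and bars show the group mean and SD. The pan-B mean lies at 10.18 to 10.35 in premalignant cells and 7.82 to 9.55 in lymphomas, and the stromal mean, over genes that mostly passed the filter through lymphomas alone, at 4.09 to 4.32 and 5.90 to 7.72.

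The interferon response was lower in the lymphomas across nearly the whole list. Of 36 tested genes 31 were lower and 0 higher, 6 with the beta-actin covariate, 18 with spike scaling and 25 to 32 when single arrays were left out. The mean level was 5.64 to 6.33 in premalignant cells and 4.62 to 5.03 in lymphomas. Irf9 and Stat2 encode transcription factors through which type I interferon acts. Irf9 gave 5.76, 6.74, 6.31, 6.78 and 6.77, and the lymphomas were close to the expression threshold at 3.77 to 4.57 (5.07-fold lower, -2.34 ± 0.17 SE, limma adjusted p = 4.4e-09). Stat2 stood at 4.93, 5.94, 5.69, 5.93 and 5.41 against 3.21 to 4.41, and neither gene overlapped between groups. Irf1 (2.14-fold) and Irf7 (at least 1.66-fold), which carry the response further, were also lower. The GTPase gene Igtp, an interferon gamma target, gave 6.57, 7.33, 6.95, 6.91 and 6.73 and 4.90 to 5.99, 3.23-fold lower. Trim30a fell 3.92-fold and the guanylate binding protein genes Gbp3 and Gbp2 fell 3.63-fold and at least 2.92-fold.

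Irf9 binds DNA at the interferon-stimulated response element, searched here as TTTCNNTTTC on both strands of the same 250 bases. It was present in 11 of the 31 interferon genes with a promoter entry (35.5%) against 3.51% of all tested genes with an entry. All 11 were among the 26 that were lower, and the 5 others with an entry held none. A match of this kind is a description of the bases and shows no binding. The windows of Stat2 (chr10:128270248-128270345, plus strand), Igtp (chr11:58199462-58199555, plus), Gbp2 (chr3:142620544-142620662, plus), Gbp3 (chr3:142559939-142560043, plus) and Ifit3 (chr19:34583313-34583476, plus) are shown, since these genes fell, with the element in capitals. The capitals in Igtp are the element read on the opposite strand, and those in Gbp3 are overlapping copies.
Stat2: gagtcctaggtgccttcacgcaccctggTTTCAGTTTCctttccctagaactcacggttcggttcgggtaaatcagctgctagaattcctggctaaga
Igtp: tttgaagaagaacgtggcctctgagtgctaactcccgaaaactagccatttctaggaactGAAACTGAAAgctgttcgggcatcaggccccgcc
Gbp2: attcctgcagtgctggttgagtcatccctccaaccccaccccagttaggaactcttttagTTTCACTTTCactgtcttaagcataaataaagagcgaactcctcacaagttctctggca
Gbp3: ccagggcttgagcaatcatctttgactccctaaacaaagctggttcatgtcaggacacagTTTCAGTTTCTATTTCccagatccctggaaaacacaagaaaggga
Ifit3: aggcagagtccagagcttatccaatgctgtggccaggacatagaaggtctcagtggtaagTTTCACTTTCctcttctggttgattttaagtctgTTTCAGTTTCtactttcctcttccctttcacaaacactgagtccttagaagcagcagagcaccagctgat

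Ifit3, an antiviral gene with separate copies of the element, was already weak in premalignant cells at 3.82, 5.43, 5.12, 5.40 and 3.94. It was at most 3.94 in the lymphomas, so it passed the filter through the other groups alone. Rsad2, another antiviral gene, was uneven among premalignant samples at 5.05, 8.45, 3.80, 4.31 and 3.81, and its call was lost without replicate 1 or 2. Of 16 NF-kB subunits and inhibitors 11 were lower and 0 higher (0 with the covariate), including Nfkb2 (4.31-fold) and Nfkbie (at least 3.04-fold). Cytokine receptors and their signalling genes gave 10 lower and 0 higher of 23 (2 with the covariate). Stat3 gave 6.94, 7.41, 7.42, 7.71 and 7.41 against 5.42 to 6.49, 2.81-fold lower, and Il10rb and Tgfbr2 fell 2.65-fold and 2.68-fold.

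**Figure D4:**
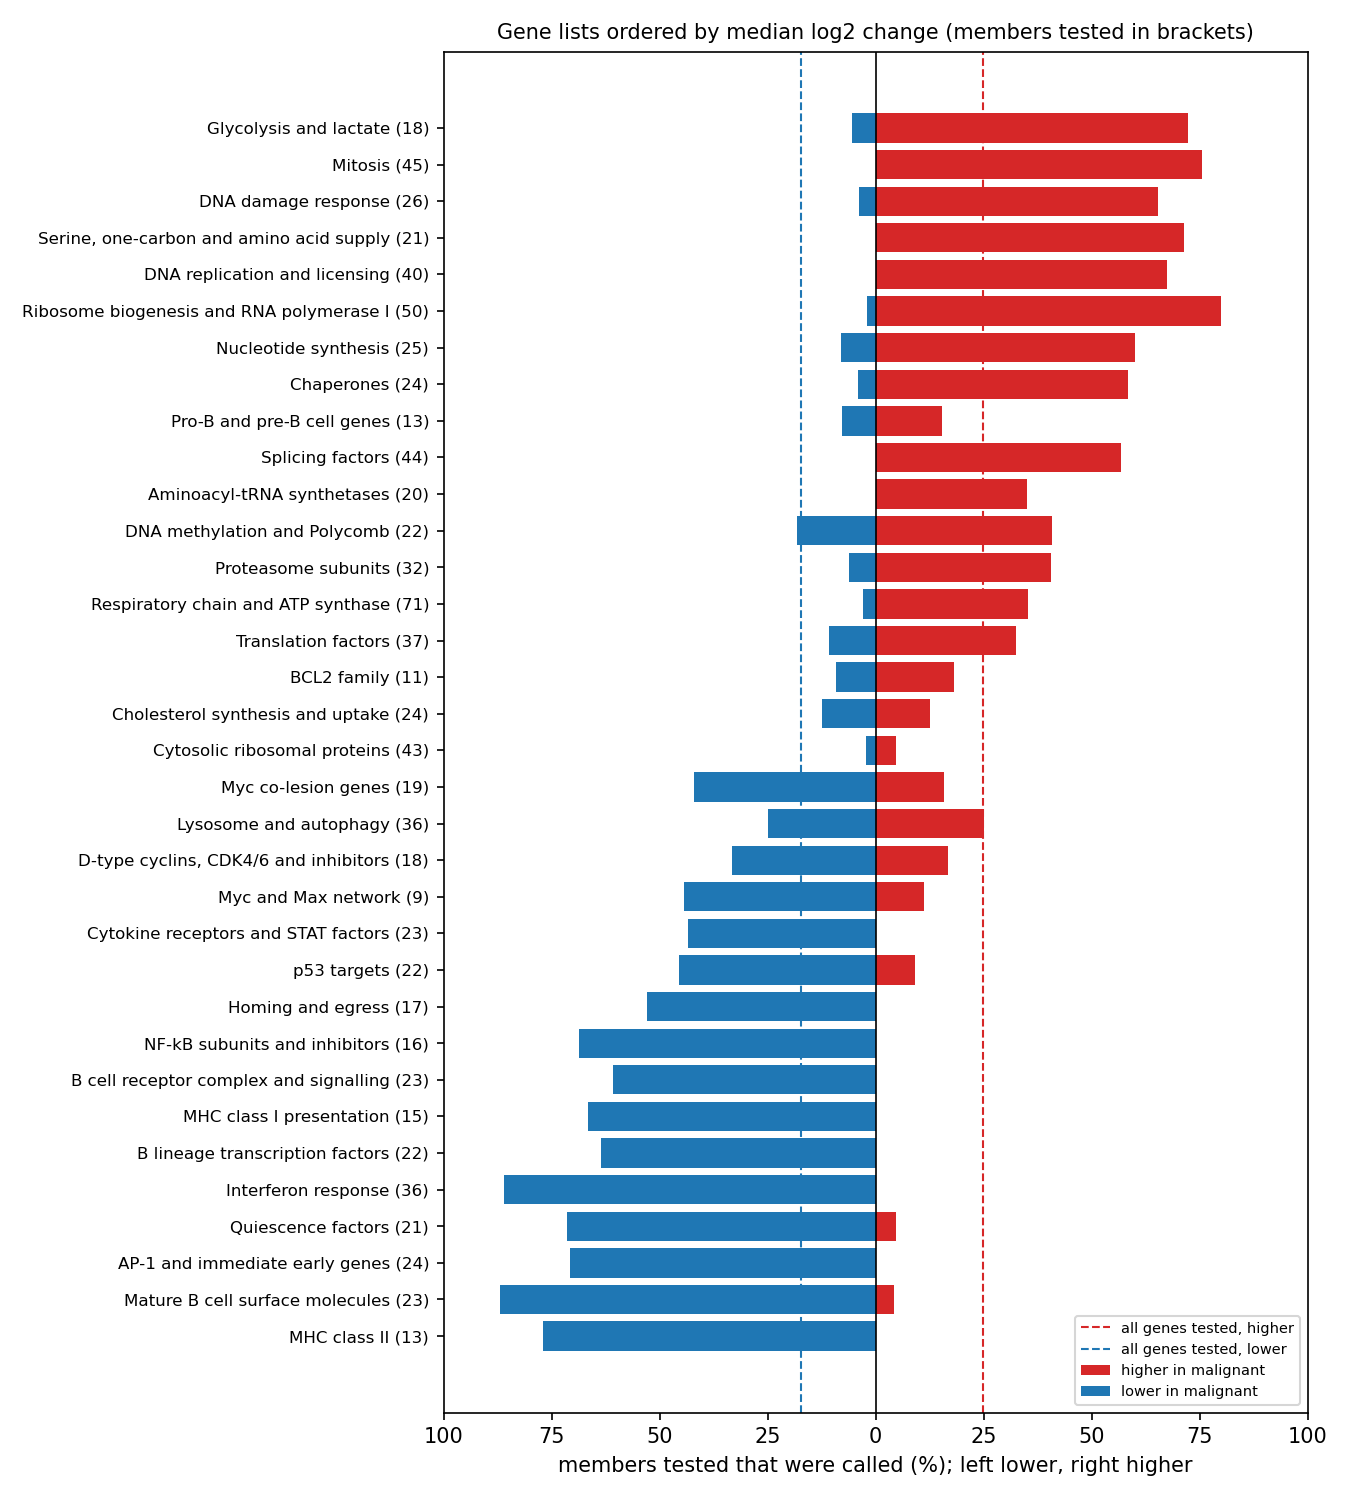
Percent of the tested members of each gene list called lower (bars to the left) or higher (bars to the right) in the lymphomas, with lists ordered by their median log2 change and the number tested in brackets. The dashed lines mark the shares of all tested genes, 17.3% lower and 24.8% higher, and the interferon list reaches 31 lower of 36 with no bar to the right.

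Many genes for growth were higher, and the rises were smaller than the falls above. Of 50 genes of ribosome biogenesis and RNA polymerase I, 40 were higher and 1 was lower, 30 higher with spike scaling and 4 with the beta-actin covariate, and the median change was 0.66. Rrp1b, a nucleolar processing factor, stood at 6.21, 6.06, 6.24, 6.15 and 6.11, and all lymphomas were above this range at 7.19 to 8.33 (3.26-fold higher, 1.71 ± 0.17 SE, limma adjusted p = 2.7e-07). Nop2, an rRNA methyltransferase gene, gave 7.83, 7.40, 7.76, 7.87 and 7.65 against 8.43 to 9.18, 2.16-fold higher. Gnl3, which encodes nucleostemin, was 2.48-fold higher. Taf1b, a subunit of the RNA polymerase I selectivity factor, was the gene called lower (1.58-fold), and the call was lost without premalignant replicate 2 or 5. The ribosomal proteins themselves gave 2 higher and 1 lower of 43 (Rpl12 0.89, Rps25 0.79 and Rps19 -0.42 on the log2 scale), with a median change of 0.06 and 0 calls left with the covariate.

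The canonical E-box bound by Myc and Max, CACGTG, lay in the same upstream window in 4 of 43 ribosome biogenesis genes (9.3%), 3 of 24 nucleotide synthesis genes (12.5%) and 1 of 18 serine and amino acid supply genes (5.56%). All tested genes had it at 10.9%, so these lists were near the background. Nop2 (chr6:125131763-125131882, plus strand) and Aldh18a1 (chr19:40588464-40588582, minus strand), a proline synthesis gene, are shown as examples with the E-box in capitals, and both were higher in the lymphomas.
Nop2: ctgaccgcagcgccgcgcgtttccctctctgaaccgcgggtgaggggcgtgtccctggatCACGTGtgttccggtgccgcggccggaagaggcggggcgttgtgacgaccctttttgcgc
Aldh18a1: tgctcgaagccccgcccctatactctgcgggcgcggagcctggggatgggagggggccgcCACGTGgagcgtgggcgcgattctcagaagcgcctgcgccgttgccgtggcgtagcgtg

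Translation factors gave 12 higher (32.4%) and 4 lower of 37, beside 24.8% of all tested genes higher. The higher count ranged from 6, without premalignant replicate 5, to 15 as single arrays were left out. With spike scaling it was 7, near the 19% of all genes called higher there. Eif1a was 2.25-fold higher, and Pdcd4, an inhibitor of the translation helicase eIF4A, fell 3.22-fold. Aminoacyl-tRNA synthetases gave 7 higher (35%) and 0 lower of 20, and 5 higher with spike scaling, led by Aars (2.28-fold) and Eprs (2.19-fold). Among 44 splicing factors 25 were higher and 0 lower, among 32 proteasome subunits 13 were higher and 2 lower, and among 24 chaperones 14 were higher and 1 lower. The chaperone called lower was Hspa5 (1.55-fold), which encodes the endoplasmic reticulum chaperone BiP, lost without premalignant replicate 2, 3 or 5. With the beta-actin covariate 0 translation, splicing or proteasome genes, 1 tRNA synthetase and 1 chaperone passed.

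In glucose metabolism 13 of 18 genes were higher and 1 was lower, 5 of the 13 with the beta-actin covariate. The glucose transporter gene Slc2a3 stood at 6.72, 6.79, 6.61, 6.48 and 6.25 against 7.40 to 8.44 with a median of 8.04 (2.56-fold higher, limma adjusted p = 4.6e-06). Slc16a1, which encodes the lactate exporter MCT1, gave 8.25, 8.80, 8.83, 8.52 and 8.30 against 9.28 to 10.49, 2.46-fold higher. Neither overlapped between groups. The hexokinases went in opposite directions, with Hk2 2.45-fold higher and Hk1 2.05-fold lower, the latter lost without premalignant replicate 2. Respiratory chain and ATP synthase genes gave 25 higher (35.2%) and 2 lower of 71, beside 24.8% of all tested genes higher. With spike scaling 9 were higher, a smaller share than the 19% of all genes. The higher count was 12 without premalignant replicate 5, 15 without replicate 2 and 0 with the beta-actin covariate.

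Supply of amino acids and one-carbon units rose in 15 of 21 tested genes, with 0 lower, 2 with the beta-actin covariate. Bcat1, which transfers the amino group of branched-chain amino acids, was 7.27, 5.83, 6.65, 6.26 and 5.95 in premalignant cells and 7.47 to 9.10 with a median of 8.33 in lymphomas, 3.99-fold higher (limma adjusted p = 1.9e-05). The wild type mean was 3.03, so the level stepped up from wild type to premalignant to lymphoma arrays. Slc7a5, a transporter of large neutral amino acids, gave 7.63, 7.79, 7.31, 7.26 and 7.31 against 8.44 to 9.27, 2.79-fold higher without overlap. Asns, asparagine synthetase, varied among the lymphomas from 5.04 to 8.14 with a median of 6.98 and was 3.49-fold higher. The mitochondrial folate enzymes Mthfd2 and Shmt2 were 2.79-fold and 2.32-fold higher.

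Nucleotide synthesis gave 15 higher and 2 lower of 25 (1 and 2 with the beta-actin covariate). Gart (2.35-fold), Ctps (2.22-fold) and Paics (1.56-fold) rose, while Prps2 and Ctps2, each an isoform of a rate-setting enzyme, fell. Prps2, which supplies phosphoribosyl pyrophosphate, gave 6.56, 7.48, 7.18, 7.36 and 7.00 against 5.31 to 6.21 with a median of 5.67, so all lymphomas lay below all premalignant arrays (2.71-fold lower, -1.44 ± 0.16 SE, limma adjusted p = 1.2e-06). The fall of Prps2 passed with the beta-actin covariate (limma adjusted p = 0.0052). Cholesterol synthesis and uptake was divided, 3 higher and 3 lower of 24 (0 with the covariate).

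Most genes of cell division were higher in the lymphomas. Of 40 DNA replication genes 27 were higher and 0 lower, and of 45 mitosis genes 34 were higher and 0 lower. In neither list did any gene pass with the beta-actin covariate, and leaving out single arrays gave 18 to 28 and 24 to 36 higher, the lowest in both without premalignant replicate 5. Mki67, the usual marker of cycling cells, stood at 9.11, 9.46, 9.11, 8.73 and 8.32 and at 9.71 to 10.67 with a median of 10.33 in lymphomas (2.48-fold higher, limma adjusted p = 1.7e-05). The replication kinase gene Cdc7 was 3.34-fold higher, and the cytokinesis gene Anln 3.26-fold. In the DNA damage response 17 of 26 genes were higher and 1 was lower, 1 of the 17 with the covariate. Chek1, the kinase that guards replication forks, gave 4.58, 4.51, 4.93, 3.69 and 3.99 against 5.59 to 6.77, 3.27-fold higher without overlap. The recombination genes Rad54l and Brca2 were 3.00-fold and 2.83-fold higher, and Fanca was 1.53-fold lower.

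Of 18 D-type cyclins, their kinases and inhibitors, 3 were higher and 6 lower. Ccnd1, little expressed in normal B cells, gave 6.66, 5.24, 4.87, 4.69 and 3.59 in premalignant cells. It ranged from 4.03 to 8.89 with a median of 8.38 in lymphomas, and 11 of 13 exceeded every premalignant array (7.54-fold higher, limma adjusted p = 8.2e-04). Ccnd2, the cyclin of stimulated B cells, gave 7.69, 8.97, 7.22, 7.75 and 6.99 against 2.99 to 8.71 with a median of 5.44, and 11 of 13 lymphomas were below every premalignant array (5.04-fold lower, limma adjusted p = 0.0079). Lymphoma 11 had both Ccnd1 (8.39) and Ccnd2 (8.71) high, and lymphoma 13 had both low (4.03 and 4.71). Ccnd3 did not pass (-0.81, limma adjusted p = 0.083), and neither did Cdk4 (0.11, limma adjusted p = 0.693). No gene of the 18 in this list passed with the beta-actin covariate.

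Among 22 p53 targets 2 were higher and 10 lower, and 2 and 2 passed with the beta-actin covariate. The 2 higher genes were Aen, a nuclease gene (2.73-fold), and Pidd1, a death domain gene (2.16-fold). Plk2 (at least 1.74-fold), Rrm2b (2.03-fold) and Gadd45a (at least 1.25-fold) were lower, as was Mdm2 above. In the BCL2 family 2 of 11 were higher and 1, Mcl1, was lower (1 and 1 with the covariate). Bnip3, a mitophagy gene, was below 4 in premalignant cells at 3.43, 3.26, 3.45, 3.27 and 3.28 and reached 3.79 to 5.84 in lymphomas (at least 2.23-fold higher). Bak1, a pore-forming death factor, was 1.59-fold higher, but the call was lost without premalignant replicate 5.

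Of 22 genes of DNA methylation and Polycomb repression 9 were higher and 4 lower, with 8 and 0 under spike scaling and 2 and 0 with the beta-actin covariate, so the falls depend on the scaling. Dnmt3a (2.32-fold), Hells (2.23-fold) and Ezh2 (1.75-fold) rose. Lysosome and autophagy genes were evenly divided, 9 higher and 9 lower of 36 (3 and 0 with the covariate). Ctsl, a lysosomal protease gene also abundant in macrophages and fibroblasts, gave 4.42, 5.38, 4.72, 5.13 and 4.82 against 5.75 to 8.13, 3.81-fold higher. Ctsh and the lymphoid gene Laptm5 fell 2.99-fold and 2.44-fold.

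The lymphomas differed among themselves in genes that record the stage of the B cell, and these were chosen for description after their values were seen. Igll1 and Vpreb1 encode the surrogate light chain of pre-B cells. On premalignant arrays Igll1 lay at 3.54 to 3.96 and Vpreb1 at 2.43 to 2.64, both unexpressed. Both exceeded 4 in the same 4 lymphomas, with Igll1 at 12.22 in lymphoma 1, 5.26 in lymphoma 3, 7.21 in lymphoma 7 and 8.60 in lymphoma 10. In lymphoma 12 Igll1 was 4.85 without Vpreb1, and the other 8 lymphomas were at or below 3.84 for both genes. As group comparisons neither passed (limma adjusted p = 0.304 and 0.313).

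Recombinase expression marked a partly different set. Rag1 was 5.77 to 6.57 on premalignant arrays, and in lymphomas 3, 6, 7 and 10 it was 8.65, 8.68, 8.97 and 8.09. It was 5.93 in lymphoma 2, 4.40 in lymphoma 12 and below 4 in the other 7, including lymphoma 1. Rag2 exceeded 4 in lymphomas 3, 6, 7 and 10 only, at 4.66 to 6.01. Cd4, a T cell coreceptor gene, was also above 4 in just these 4, at 6.72, 6.50, 5.92 and 4.28, while Cd3e stayed below 4 throughout. Il7r, the interleukin 7 receptor of B cell precursors, was 3.76 to 4.16 before malignancy. It exceeded that range in 8 lymphomas and was highest, at 9.15, in lymphoma 1.

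Light chain RNA also differed between lymphomas. Igkv8-30, a kappa variable segment probe set, was 12.69 to 13.92 on premalignant arrays. The lowest lymphomas were 7, 10 and 3, at 5.46, 6.95 and 7.16, and the highest were lymphomas 8 and 13 at 12.63 and 11.73. Individual segments were present in some tumours only. Igkv9-120, at 9.19 to 11.08 in premalignant cells, kept that range in lymphomas 8 and 9, at 10.76 and 9.61, and was at most 2.49 in 8 others. Iglv1, a lambda segment, was highest in lymphoma 13 at 9.03. Ighm, the constant region of IgM, was present in all lymphomas at 10.47 to 12.61, below its premalignant range of 12.79 to 13.55. Immunoglobulin segments are close copies of each other, so a probe set may report several.

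Lymphoma 1 was the lowest of all for Cd74 (4.84), H2-Aa (4.03) and Ms4a1 (4.64), the class II and CD20 genes, and had the highest Sparc (9.36). Salivary gland secretion genes were present in some tumours. The 4 genes Bpifa2, Amy1, Smr3a and Dcpp3 were above 4 in the same 7 lymphomas (1, 2, 3, 4, 6, 7 and 13) and in none of the other 6 or of the premalignant arrays. Bpifa2 reached 9.36 to 12.79 in those 7 and was at most 2.51 in the others. Without these 7 arrays 2403 genes passed, 1405 higher and 998 lower, with interferon genes at 28 lower. Whether tissue around the tumours entered these samples was not tested.

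**Figure D5:**
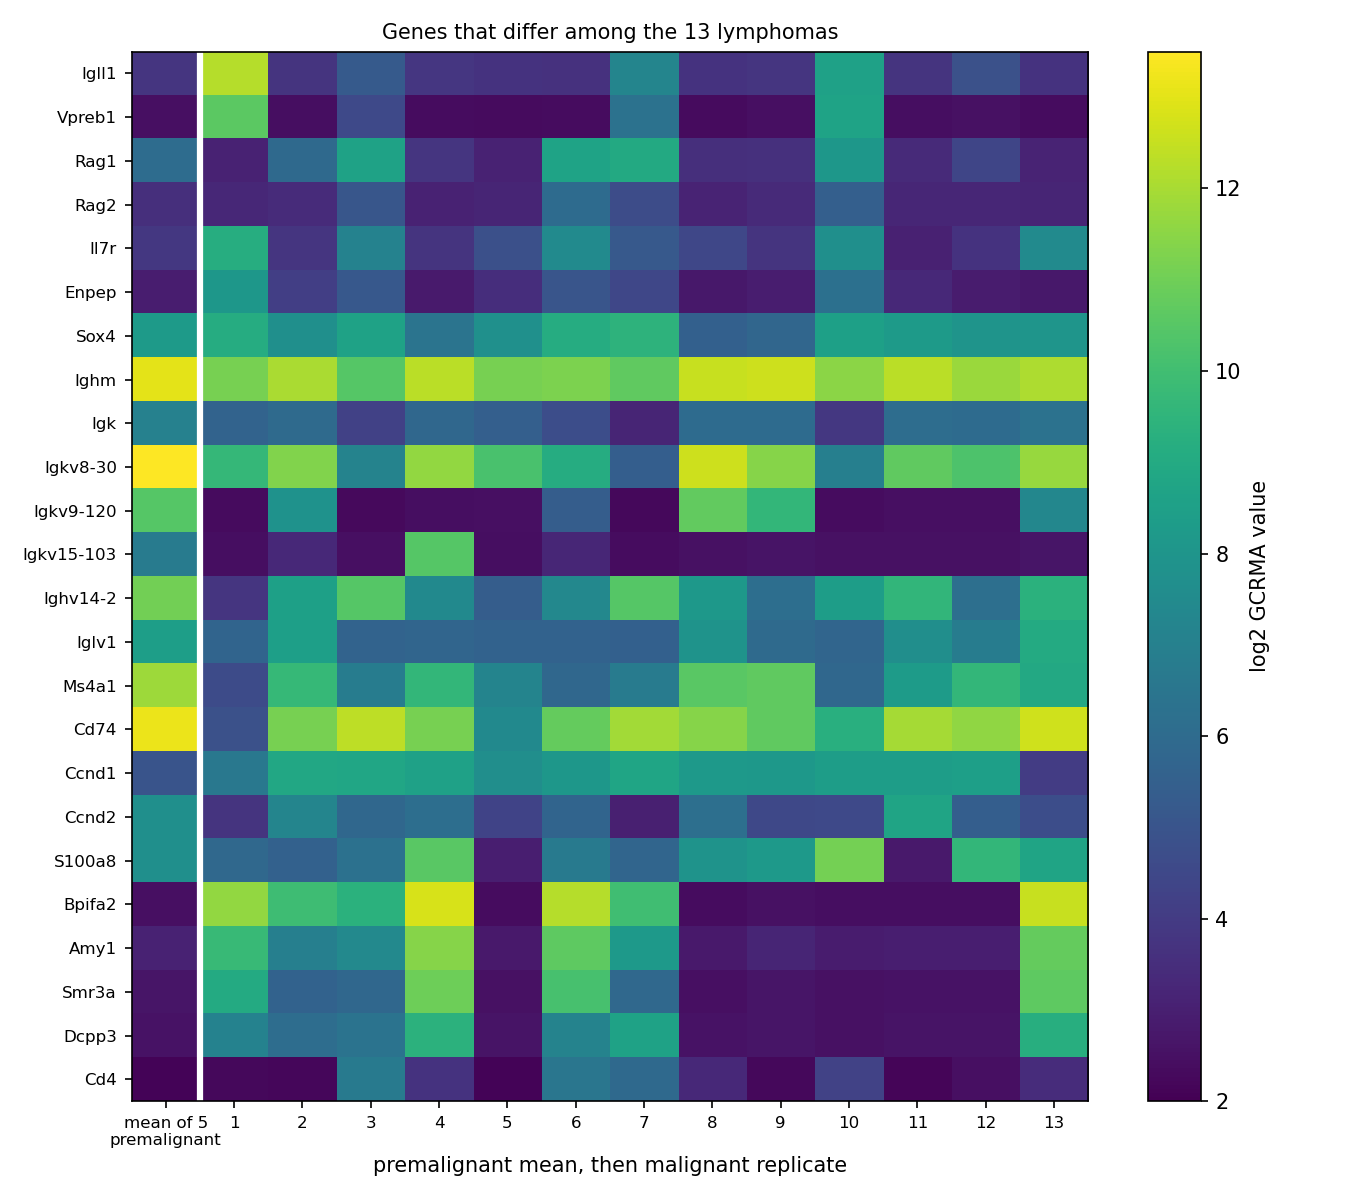
Heat map of log2 intensity for genes that varied among the lymphomas, with 1 row per gene and 1 column per lymphoma, numbered by replicate, after a column for the mean of the 5 premalignant arrays. Igll1 and Vpreb1 are high in lymphomas 1, 7 and 10, Rag1 in 3, 6, 7 and 10, and the salivary gland genes in the same 7 lymphomas.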

How the data were processed

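Total RNA from 22 samples (4 wild type, 5 premalignant, 13 malignant) was labelled with biotin and hybridised to Affymetrix MOE430A arrays, per the labels' protocols. The authors deposited 1 linear intensity per probe set and array, made with GCRMA per the submitters' processing notes. Its settings and version were not found in those notes. GCRMA fits all arrays together and makes the distributions of their probes alike, so a shift shared by most genes may not be seen. The deposited values were not fully equal. Their median over all probe sets was 3.44 to 3.63 on premalignant and 3.32 to 3.49 on lymphoma arrays. Intensities ran from 2.11 to 18277. No 2 arrays held identical values (0 pairs), and the number of arrays limits the precision.

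From there, log2 was taken. Of 22690 probe sets, 64 were controls, and 20380 had 1 gene symbol, 691 several and 1555 none in the platform annotation. Probe sets above log2 4 on at least 4 of the 22 arrays were kept (10789, of which 9832 had 1 symbol), and the brightest represented its gene, which gave 6437 genes. In 102 of 2270 genes with more than 1 kept probe set, probe sets were called in opposite directions. Groups came from the sample titles. The 5 premalignant and 13 malignant arrays were compared with limma 3.58.1 in R 4.3.3 (lmFit, eBayes, two-sided), without covariates, with Benjamini-Hochberg adjustment over the 6437 genes and a threshold of 0.05. Fold changes set a group mean below log2 4 to 4 and are then written as at least that size. Changes given with an SE come from the fit itself. Single values were tested by an exact two-sided permutation test over arrays (scipy 1.17.1).

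Genes named are Myc, the 10 largest rises and falls whose groups overlapped by at most 1 array, from each pathway list the 2 called members that changed most in the direction of the majority and 1 in the opposite direction, all tested genes of the co-lesion list, the 10 genes that varied most among the lymphomas, and the 2 brightest genes of each cell type list. Others were chosen after their values were seen, among them those given by lymphoma. The members and lists were chosen with earlier results of these data known. The code was tested on made values with known answers, in which 200 of 6437 genes were changed. It recovered 81% of the 2-fold and 99% of the 4-fold changes, with 0 wrong signs, and made 26 false calls. Those were a larger share of its calls than the threshold of 0.05 aims for. The made values held far fewer changed genes than the 2711 called here, and each gene was drawn independently. They therefore give no rate of false calls for these data. Promoters are the 250 bases before the start in RefSeq's GRCm38.p6 table, which matched 5332 of the tested genes. Alternatives changed the filter, the probe set rule, the scaling, the samples, the weights, the prior, a replicate block, a beta-actin covariate and the arrays left out. 2 were added after seeing the data: the fit within lymphomas and the one without the arrays that carried salivary gland genes.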

Additional observations from a re-analysis of the deposited data

Results flagged for a closer look

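On 20 occasions 1 premalignant array stood apart from the other 4 by Dixon's gap test at the 95% level, which chance meets in about 1 in 20 groups. Of these arrays 17 were replicate 1 and 3 were replicate 2. The number of genes examined is not given here, so the 20 cannot be set against chance and are a description. All values are log2 intensities.

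Replicate 1 was the lowest premalignant array for lymphocyte genes and immunoglobulins: Cd83 (6.68), Cd2 (7.79), Cd24a (10.61), Igha (9.51) and Igkv9-120 (9.19). It was also the lowest for H2-M3 (6.91), the macrophage gene Cd68 (2.92), the histone demethylase gene Kdm6a (6.60), Rps19 (12.81) and Xist (1.85, where the nearest other array was at 9.51). It was the highest for Cd79a (13.17), Myb (9.15), Gfi1 (4.57) and Sparc (3.20), and for the salivary genes Amy1 (3.62), Bpifa2 (2.53) and Smr3a (2.84). The last 4 of these values are below the filter level of 4. Replicate 2 was the lowest for Ccr6 (5.76) and Eif1a (6.26) and the highest for Bcl2 (3.69). Xist also divided the lymphomas, above 4 in 8 and at or under 4 in 5 of the 13. The sex of the mice entered no fit and its part was not tested.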

How the results depend on the processing

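Against 2711 called genes (1597 higher, 1114 lower, 844 by at least 2-fold), the beta-actin covariate left 321 (123 higher, 198 lower, 301 by at least 2-fold), of which 315 were called as designed. The cause was not tested. Omitting the filter gave 4929 calls, 3289 of them lower, over 12393 genes, because dim probe sets then entered the test. There 33.3% of the calls were higher, and the median change was -0.06. Scaling on the spiked hybridisation controls gave 1737 calls (511 lower, 70.6% higher, median change 0.26, 1712 shared). Centring on the median gave 2946 (69.2% higher, median change 0.19).

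Other alternatives kept each count within 1.5 times its value: the stricter filter gave 2448, the mean of probe sets 2742, quantile normalisation 2739, a fit over 3 groups 2743, array weights 2766, a trended robust prior 2696 and leaving out the arrays with salivary gland genes 2403. Leaving out 1 array in turn gave 2236 to 2739 calls, 1219 to 1621 higher, 968 to 1136 lower and 784 to 951 changed at least 2-fold. Of 122 called genes among the 146 named by the rule, the covariate lost 82, spike scaling 14, the mean of probe sets 7, the arrays with salivary genes 5, median centring 3, omitting the filter 1, and single arrays 10, with 0 changes of sign in any of these.

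With the replicate number as a replicate block, 1677 genes passed (975 higher, 702 lower), 1597 of them called as designed, and 14 named genes were lost. Samples of the same number did not deviate together (correlations from -0.100 to 0.073). Whether equal numbers mark a shared batch was not tested.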

Other observations

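The Gimap genes, a cluster of GTPases that lymphocytes use for survival, were lower in the lymphomas in all 5 members tested here: Gimap7 (log2 change -3.30 ± 0.34 SE), Gimap6 (-3.10 ± 0.43), Gimap4 (-4.15 ± 0.96), Gimap3 (-2.65 ± 0.36) and Gimap1 (-2.05 ± 0.40). The limma adjusted p was 0.0020 for Gimap4 and smaller for the others. Of these only Gimap7 passed with the beta-actin covariate (limma adjusted p = 0.031).

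In 29 of the 6437 tested genes all 5 premalignant arrays were above the filter level of log2 4 and all 13 lymphomas at or below it. In 24 genes the reverse held. Among the 29 were Ncf1, a subunit of the NADPH oxidase (mean 6.60 to 3.02), and Cnr2, the B cell cannabinoid receptor (6.23 to 3.14). Among the 24, beside stromal genes, were Nrf1, an activator of mitochondrial genes (3.19 to 5.19), Spred2, an inhibitor of MAP kinase signalling (3.59 to 5.94), and Il18bp, an inhibitor of interleukin 18 (3.27 to 5.30). All 5 were also called with the beta-actin covariate. These genes were picked after their values were seen, from groups on opposite sides of the filter level. Their separation and direction follow from that choice, so they are a description.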
